A study of Vitis vinifera with 36 samples.

Results

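At harvest in the summer season, ‘Muscat Hamburg’ grapes and ‘Victoria’ grapes were compared across the whole transcriptome. The members were all libraries labelled with the summer crop and stage E-L 38, the harvest stage of the modified Eichhorn-Lorenz scale, and they were 6 of the 36 libraries of the study. There were 3 libraries of ‘Muscat Hamburg’, a dark-skinned muscat table grape, and 3 of ‘Victoria’, a white table grape. The RNA libraries of the study cover both varieties in a summer and a winter season, which one vine carries in turn under double cropping, from veraison (E-L 35) over E-L 36 to harvest. All vines were 7 years old, grew on SO4 rootstock under rain shelters in one vineyard, and were forced into growth with hydrogen cyanamide. All berries came from the 2014 vintage and their seeds were removed before RNA extraction. A replicate was a pool of berries from many vines, so the spread between replicates is that between pools of one vintage and not between years.

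Flavonoids start from phenylalanine. PAL (phenylalanine ammonia-lyase), C4H, which hydroxylates cinnamate, and 4CL, a CoA ligase, make the activated acid that CHS (chalcone synthase) builds into a chalcone. CHI closes its ring and F3H hydroxylates it to a dihydroflavonol, and these enzymes form the common upstream pathway. From there flavonol synthase (FLS) makes flavonols, while dihydroflavonol reductase (DFR) and leucoanthocyanidin dioxygenase (LDOX) lead to anthocyanidins, the coloured precursors of anthocyanins. The glycosyltransferase UFGT attaches the sugar that makes an anthocyanin stable, and the MYBA transcription factors switch UFGT on in the skin of dark grapes. In many white varieties MYBA1 carries a retrotransposon insertion and MYBA2 carries coding changes. The alleles of these vines were not analysed here.

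The 6 libraries held 8471931 to 12287158 estimated counts and listed 21334 to 21836 genes. On log2(CPM + 1) of 20799 genes, each ‘Muscat Hamburg’ library correlated with the others of its group at 0.9889 to 0.9913, and with no library of another group above 0.9852. The ‘Victoria’ libraries were less alike, at 0.974 to 0.9884 within the group. ‘Victoria’ replicate 1 was as close to a summer E-L 36 library of its variety (0.9846) as to its nearest E-L 38 library (0.9845). ‘Victoria’ replicate 3 correlated at 0.9881 with the E-L 36 library numbered 1, and that library correlated with the others of its own group at 0.9647 to 0.9657 only. In ‘Victoria’ the stages E-L 36 and E-L 38 were therefore not clearly apart in these libraries. In ‘Muscat Hamburg’, summer E-L 36 replicate 1 likewise correlated at 0.9852 with an E-L 38 library, above the 0.9672 to 0.9796 within its own group. Whether the ‘Victoria’ libraries numbered 1 of these stages carry each other's label was not tested, the labels were kept, and the counts below are also given without ‘Victoria’ replicate 1.

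The varieties differed widely at harvest. Of 19736 genes tested, 1493 were higher in ‘Muscat Hamburg’ grapes (7.56%) and 2121 were lower (10.7%), 3614 in all (18.3%). A gene was called when its p in the quasi-likelihood test of edgeR, adjusted after Benjamini and Hochberg, was 0.05 or less and the varieties were 2-fold or more apart. Without ‘Victoria’ replicate 1, 1449 genes were higher and 1941 lower. At 4-fold or more, 674 genes were higher and 983 lower, and at 32-fold or more 150 were higher and 197 lower. The median log2 fold change of all tested genes was -0.01 after TMM scaling, which centres it. In 1428 of the higher and 1968 of the lower genes the libraries of the varieties did not overlap, against 47.5% of all tested genes without overlap in either direction. Since the genes were called from the same libraries, this is no further evidence for the calls. On the first principal component of the 6 libraries, which held 70.11% of the variance, the varieties separated, and the second (11.84%) spread the ‘Victoria’ libraries from 54.58 for replicate 1 to -48.69 for replicate 3.

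**Figure D1:**
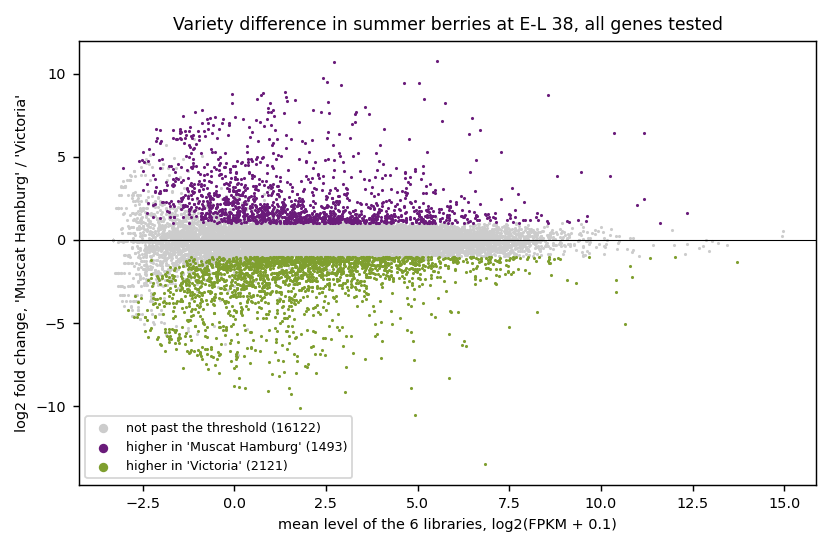
Log2 fold change between the varieties at summer E-L 38 (vertical axis) against the mean level of the 6 libraries on log2(FPKM + 0.1) (horizontal axis) for 19736 genes. Each point is a gene; the 1493 genes higher and the 2121 genes lower in ‘Muscat Hamburg’ grapes are coloured, and both groups reach over the whole range of levels.

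Expression and alignment cannot be told apart in these calls, because the reads of both varieties were aligned to one reference genome and a variety whose sequence differs from it loses reads. Genes whose estimated counts were not whole numbers, which share reads with similar copies, were called more often (27.4% of 5666) than genes with whole counts in all 6 libraries (14.7% of 14070). The called share was smallest among genes with a mean of 10 to 100 FPKM (fragments per kilobase of transcript, scaled for the reads of the library), with 5.36% higher and 7.56% lower, and among the 61 genes with a mean of at least 1000 FPKM 10 were higher and 10 lower. By the chromosome read from the gene identifier, the called share ran from 14.5% on chromosome 17 to 23.0% on chromosome 16, and reached 24.5% of the unplaced genes.

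A small set of genes was measured in only one variety. With at least 30 counts in every library of one variety and at most 3 in every library of the other, 30 genes were seen in ‘Muscat Hamburg’ grapes alone and 29 in ‘Victoria’ grapes alone at this stage. Of each, 8 were also at 3 counts or fewer in all 15 other libraries of the variety that lacked them. Among the 30 seen in ‘Muscat Hamburg’ alone were the flavonoid 3′5′-hydroxylase genes VIT_206s0009g03010 and VIT_206s0009g03000, which are described below. Genes outside the flavonoid list of the study carry no annotation in the sources used, so only the extremes are given by identifier. VIT_200s0187g00170 had 90.8, 94.49 and 89.2 FPKM in ‘Muscat Hamburg’ grapes and 0, 0 and 0.09 FPKM in ‘Victoria’ grapes. VIT_200s0279g00100 showed the opposite pattern, with 198.56, 269.63 and 221 FPKM in ‘Victoria’ grapes and no read in any ‘Muscat Hamburg’ library, at least 460-fold higher in ‘Victoria’ at a floor of 3 counts per library. The 2 next were VIT_202s0012g00490 on chromosome 2, at 64.34, 71 and 60.26 FPKM against 0.19, 0 and 0 FPKM in ‘Victoria’, and VIT_219s0014g05370 on chromosome 19, at 50.3, 57.1 and 75.37 FPKM in ‘Victoria’ and 0 in ‘Muscat Hamburg’ (at least 59.3-fold).

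The study annotates 64 genes of flavonoid synthesis and its regulation, and all of them passed the filter on low counts. In ‘Muscat Hamburg’ grapes 19 were higher (background 7.56%), 11 were lower (background 10.7%) and 34 were not past the threshold. Without ‘Victoria’ replicate 1 the counts were 18 higher and 8 lower. Their median log2 fold change was 0.09, against -0.01 over all genes, and the libraries of the varieties did not overlap in 23 genes that were above (background 23.3%) and 16 that were below (background 24.2%), the latter close to the background share. The study chose the synthesis genes among them for their difference between seasons on the same libraries, and analysed their regulators beside them. The counts are therefore not independent evidence of a direction. By role, the higher genes were 6 of 23 in the upstream pathway, 5 of 8 B-ring hydroxylases, 1 of 3 in flavonol synthesis, 2 of 6 for DFR and LDOX, 3 of 3 in anthocyanin modification and 2 of 18 regulators. The lower genes were 6 in the upstream pathway, 2 DFR copies, 1 gene of proanthocyanidin synthesis and 2 regulators.

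**Figure D2:**
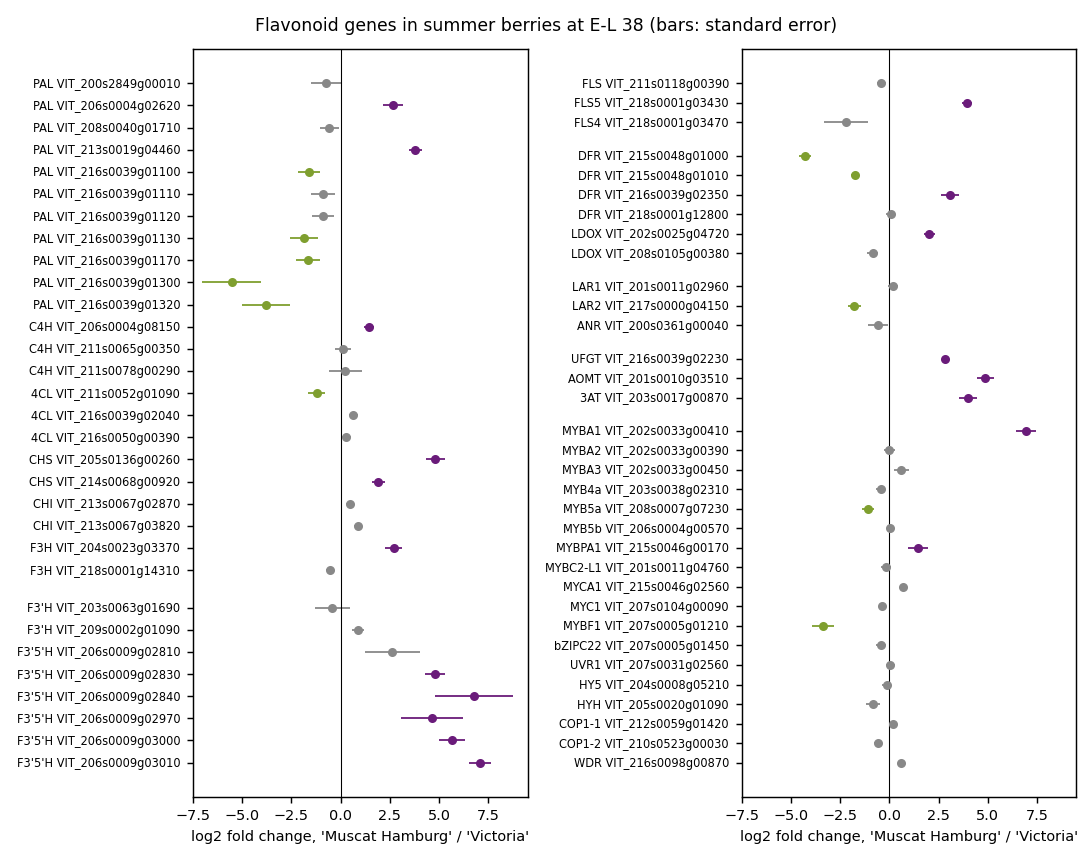
Log2 fold change of ‘Muscat Hamburg’ over ‘Victoria’ grapes (horizontal axis) with its standard error for the 64 flavonoid genes, grouped by role from the upstream pathway to the regulators. Purple points were higher and green points lower in ‘Muscat Hamburg’ at the threshold, grey points were not past it; the 3 genes of anthocyanin modification all lie to the right and most regulators lie near 0.

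MYBA1 separated the varieties most among the regulators. VviMYBA1 (VIT_202s0033g00410), the activator of UFGT, had 15.24, 20.67 and 18.75 FPKM in ‘Muscat Hamburg’ grapes and 0.36, 0 and 0 FPKM in ‘Victoria’ grapes. Only ‘Victoria’ replicate 1 held any read of it, and every ‘Muscat Hamburg’ library was far above. The log2 fold change was 6.95 ± 0.53 (SE, n = 3 per variety, edgeR adjusted p = 2.12e-10), but its size rests on the 4.64 estimated counts of that library. Without it ‘Victoria’ was at 0 and the fitted value of 10.92 depends on the prior count, so the size is not fixed by these data. The related VviMYBA2 (VIT_202s0033g00390) was expressed in both, at 33.9, 50.33 and 49.72 FPKM in ‘Muscat Hamburg’ and 64.99, 39.87 and 29.36 FPKM in ‘Victoria’ grapes. The libraries overlapped and the mean levels were 44.6 ± 9.31 and 44.7 ± 18.3 FPKM (SD, n = 3), with an edgeR adjusted p of 0.992. VviMYBA3 (VIT_202s0033g00450) likewise overlapped, at 19.2 ± 5.42 and 12.7 ± 5.16 FPKM (SD, n = 3, edgeR adjusted p = 0.22). The 3 MYBA genes are neighbours with similar sequences and had counts that were not whole, in 4 of the 6 libraries for MYBA1 and in all 6 for MYBA2 and MYBA3, so their shares of reads are uncertain.

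All 3 genes that finish an anthocyanin were higher in ‘Muscat Hamburg’ grapes, and UFGT kept a clear level in ‘Victoria’ grapes. VviUFGT (VIT_216s0039g02230) had 61.26, 63.33 and 70.89 FPKM in ‘Muscat Hamburg’ and 6.87, 8.93 and 11.65 FPKM in ‘Victoria’ grapes. The varieties were far apart, but ‘Victoria’ kept a level of 9.15 ± 2.4 FPKM (SD, n = 3), 7.12-fold below the ‘Muscat Hamburg’ mean (log2 fold change 2.83 ± 0.18, edgeR adjusted p = 8.58e-13). The methyltransferase gene VviAOMT (VIT_201s0010g03510) had 9.49, 14.9 and 9.1 FPKM against 0.08, 0.59 and 0.46 FPKM in ‘Victoria’, a log2 fold change of 4.87 ± 0.43 (SE, edgeR adjusted p = 3.14e-09). The acyltransferase gene Vvi3AT (VIT_203s0017g00870) was low in both, with 2.47, 2.1 and 2.33 FPKM in ‘Muscat Hamburg’ and 0, 0.34 and 0.11 FPKM in ‘Victoria’ grapes. Its libraries did not overlap either (3.99 ± 0.48 on the log2 scale, edgeR adjusted p = 6.05e-07). Counts of AOMT were not whole in 5 of the 6 libraries.

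**Figure D3:**
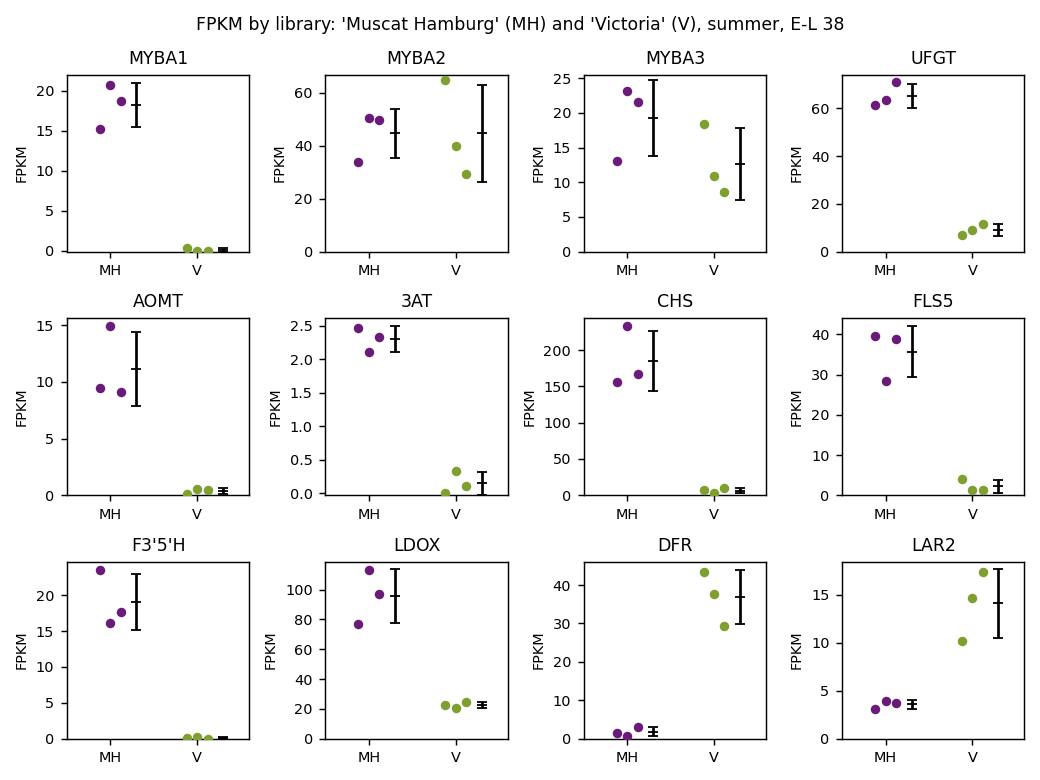
FPKM in each library of ‘Muscat Hamburg’ (MH, purple) and ‘Victoria’ (V, green) grapes at summer E-L 38 for 12 flavonoid genes, with the mean and SD beside the points. MYBA1 is at or near 0 in ‘Victoria’ while MYBA2 and MYBA3 overlap; DFR and LAR2 are the genes shown that are higher in ‘Victoria’ (CHS, F3'5'H, LDOX and DFR are the copies VIT_205s0136g00260, VIT_206s0009g03010, VIT_202s0025g04720 and VIT_215s0048g01000).

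Flavonoid 3′5′-hydroxylases (F3'5'H), which add the hydroxyl groups that make delphinidin-type pigments, were almost silent in ‘Victoria’ grapes. Summed over the 6 copies, the level was 61.59, 39.28 and 37.66 FPKM in ‘Muscat Hamburg’ and 0.6, 1.41 and 0.87 FPKM in ‘Victoria’ grapes. The sums did not overlap and their means, 46.2 ± 13.4 and 0.96 ± 0.412 FPKM (SD, n = 3), were 48.1-fold apart. In ‘Muscat Hamburg’ most of it came from VIT_206s0009g03010, with 23.51, 16.17 and 17.63 FPKM, VIT_206s0009g03000, with 21.13, 8.24 and 8.39 FPKM, and VIT_206s0009g02830, with 12.35, 9.67 and 9.45 FPKM. ‘Victoria’ held no more than 5 reads of VIT_206s0009g03010 over its 3 libraries, against 792 in ‘Muscat Hamburg’, a ratio of 147 after scaling for depth with an exact 95% counting interval of 62.7 to 454. The ratio was 56 (18.8 to 274) for VIT_206s0009g03000 and 26.9 (10.2 to 100) for VIT_206s0009g02970, whose call in the model was lost without ‘Muscat Hamburg’ replicate 2 (4.05 on the log2 scale) or ‘Victoria’ replicate 1 (4.95) or 3 (4.07). VIT_206s0009g02830 had a log2 fold change of 4.81 ± 0.52 (SE, edgeR adjusted p = 2.44e-08). VIT_206s0009g02840 was listed at 0 in all ‘Victoria’ libraries and in ‘Muscat Hamburg’ replicate 3, so the libraries overlapped. Its ‘Muscat Hamburg’ mean was 4.15-fold above a floor of 3 counts per library, a value that does not cover the spread between replicates. With limma on log2(FPKM + 1) the log2 fold change was 0.67 and the call was lost. The remaining copy, VIT_206s0009g02810, had 3.05, 0.77 and 0.15 FPKM against 0, 0 and 0.56 FPKM and did not pass (edgeR adjusted p = 0.138). These copies lie side by side and share reads, so the sum is the firmer value.

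The 3′-hydroxylases (F3'H), which give cyanidin-type pigments, differed less. VIT_209s0002g01090 had 19.25, 23.81 and 33.23 FPKM in ‘Muscat Hamburg’ and 16.58, 11.66 and 13.3 FPKM in ‘Victoria’ grapes, and the libraries did not overlap. The log2 fold change of 0.88 ± 0.30 was below the fold threshold (edgeR adjusted p = 0.019), which it passed without ‘Muscat Hamburg’ replicate 1 (1.04) or ‘Victoria’ replicate 1 (1.02). VIT_203s0063g01690 was at most 1.59 FPKM in all 6 libraries, with overlapping values (edgeR adjusted p = 0.739).

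The upstream pathway did not differ in one direction. Of its 23 genes, 6 were higher (background 7.56%) and 6 lower (background 10.7%), and the direction depended on the copy. PAL, which opens the pathway, showed this most. Of its 11 copies, 2 were higher and 5 lower in ‘Muscat Hamburg’ grapes, against the same background, while the sum over the copies was 56.3 ± 3.34 and 49.4 ± 8.12 FPKM (SD, n = 3) with overlapping libraries. VIT_213s0019g04460 on chromosome 13 had 22.76, 27.89 and 28.74 FPKM in ‘Muscat Hamburg’ and 1.98, 1.12 and 2.5 FPKM in ‘Victoria’ grapes. It was the most abundant PAL copy of ‘Muscat Hamburg’, and the log2 fold change was 3.81 ± 0.31 (SE, edgeR adjusted p = 1.45e-10). VIT_206s0004g02620 on chromosome 6 had 8.98, 18.15 and 9.75 FPKM against 2.31, 0.99 and 2.48 FPKM, and did not overlap either (2.66 ± 0.50, edgeR adjusted p = 9.01e-05).

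The 5 lower PAL copies all belonged to a cluster of 7 on chromosome 16, and in each of the 7 every ‘Victoria’ library was above every ‘Muscat Hamburg’ library (background 24.2%). The most abundant, VIT_216s0039g01100, had 5.8, 2.84 and 2.15 FPKM in ‘Muscat Hamburg’ and 14.11, 10.26 and 8.69 FPKM in ‘Victoria’ grapes. Its log2 fold change was -1.62 ± 0.56 (SE, edgeR adjusted p = 0.0207), and it no longer passed without ‘Victoria’ replicate 1 (-1.40) or without ‘Muscat Hamburg’ replicate 2 (-1.51) or 3 (-1.33). VIT_216s0039g01300 had 0, 0 and 0.33 FPKM against 6.22, 5.67 and 5.22 FPKM, the lowest log2 fold change of the cluster (-5.53 ± 1.49, edgeR adjusted p = 0.00388). With only ‘Muscat Hamburg’ replicate 3 above 0 its size is uncertain, and it ran from -10.19 without that library, a fitted value that depends on the prior count, to -2.61 with limma on log2(FPKM + 1). VIT_216s0039g01130, VIT_216s0039g01170 and VIT_216s0039g01320 had log2 fold changes of -1.86, -1.68 and -3.78 and passed. The call of VIT_216s0039g01130 was lost without any one library but ‘Muscat Hamburg’ replicate 1 (-1.66 to -1.91 in the fits that lost it), that of VIT_216s0039g01170 without any one but ‘Victoria’ replicate 3 (-1.51 to -1.78), and that of VIT_216s0039g01320 without ‘Muscat Hamburg’ replicate 1 (-3.27) or 3 (-3.14). VIT_216s0039g01110 and VIT_216s0039g01120 (both -0.88) did not pass. Counts of all 7 copies were not whole, so the reads may be divided among them unevenly.

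**Figure D4:**
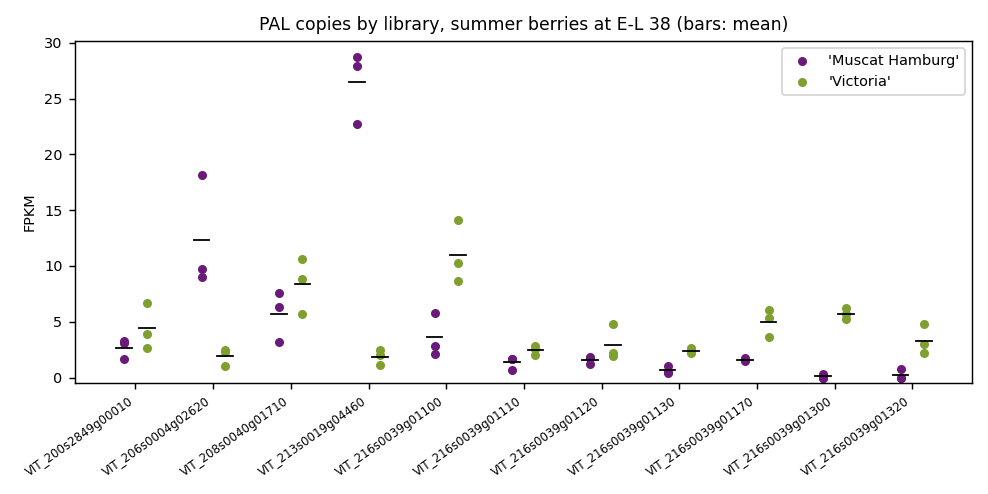
FPKM of the 11 PAL copies in each library of ‘Muscat Hamburg’ (purple) and ‘Victoria’ (green) grapes at summer E-L 38, with the mean as a bar. The copies on chromosomes 6 and 13 are higher in ‘Muscat Hamburg’, and all 7 of the chromosome 16 cluster (identifiers starting with VIT_216s0039) are higher in ‘Victoria’ without overlap.

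The next steps repeated the split. The C4H gene VIT_206s0004g08150 had 29.97, 30.46 and 28.14 FPKM in ‘Muscat Hamburg’ and 9.85, 9.96 and 13.05 FPKM in ‘Victoria’ grapes. It did not overlap and the log2 fold change was 1.43 ± 0.25 (SE, edgeR adjusted p = 4.25e-05), while the other C4H copies did not pass. The 4CL gene VIT_211s0052g01090 was lower, with 9.46, 4.34 and 5.55 FPKM against 13.57, 12.66 and 15.89 FPKM (-1.22 ± 0.42, edgeR adjusted p = 0.0195). The call was lost without ‘Muscat Hamburg’ replicate 2 (-1.02) or 3 (-1.11) or ‘Victoria’ replicate 3 (-1.12). The more abundant 4CL copy VIT_216s0050g00390 overlapped at 50.6 ± 4.11 and 41.7 ± 16 FPKM (SD, n = 3), and the copy VIT_216s0039g02040 was below the fold threshold (0.66 ± 0.25).

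CHS, the first enzyme of flavonoid synthesis proper, was higher in ‘Muscat Hamburg’ grapes in both copies. VIT_205s0136g00260 had 156.56, 232.69 and 166.58 FPKM against 7.19, 2.74 and 9.59 FPKM in ‘Victoria’ grapes. No library came near the other variety, with a log2 fold change of 4.82 ± 0.50 (SE, edgeR adjusted p = 1.28e-08). VIT_214s0068g00920 had 44.7, 80.84 and 70.43 FPKM against 12.17, 20.86 and 19.13 FPKM, a log2 fold change of 1.92 ± 0.33 (SE, edgeR adjusted p = 3.17e-05). It was the main CHS copy of ‘Victoria’, where the sum of the copies was 23.9 ± 4.69 FPKM, against 250.6 ± 57.4 FPKM in ‘Muscat Hamburg’ (SD, n = 3), a 10.5-fold difference. CHI, the following step, did not reach a 2-fold difference in either copy (0.46 ± 0.17 for VIT_213s0067g02870 and 0.90 ± 0.21 for VIT_213s0067g03820 on the log2 scale), although the latter passed at 1.06 without ‘Muscat Hamburg’ replicate 1.

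F3H again had copies that leaned to different varieties. VIT_204s0023g03370 was higher in ‘Muscat Hamburg’ grapes, at 42.88, 54.89 and 35.77 FPKM against 6.67, 4.13 and 9.69 FPKM (2.70 ± 0.45 on the log2 scale, edgeR adjusted p = 1.88e-05). The copy VIT_218s0001g14310 supplied most of the F3H level of ‘Victoria’, with 63.15, 49.13 and 37.65 FPKM against 26.26, 29.81 and 47.52 FPKM. Its libraries overlapped and the difference of -0.53 ± 0.18 was below the fold threshold. Summed, F3H was only 1.39-fold apart.

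Flavonol synthesis differed in 1 of the 3 FLS genes. VviFLS5 (VIT_218s0001g03430) had 39.69, 28.39 and 38.94 FPKM in ‘Muscat Hamburg’ and 4.02, 1.33 and 1.32 FPKM in ‘Victoria’ grapes. All ‘Muscat Hamburg’ libraries were well above, and the log2 fold change was 3.93 ± 0.25 (SE, edgeR adjusted p = 8.58e-13). VIT_211s0118g00390 was the most abundant FLS gene in both, at 66.1 ± 18.2 and 88.3 ± 32.4 FPKM (SD, n = 3), and overlapped. The sum over the FLS genes was 1.11-fold apart. VviFLS4 (VIT_218s0001g03470) was low, at 0.07, 0.28 and 0.75 FPKM against 0.77, 2.24 and 2.45 FPKM. Every ‘Victoria’ library was higher, but the log2 fold change of -2.20 ± 1.14 did not pass (edgeR adjusted p = 0.126), and passed in the fit without the ‘Victoria’ libraries numbered 1 at both E-L 36 and E-L 38 (-2.58, edgeR adjusted p = 0.0195) and in that of only the 6 libraries compared (-2.23, edgeR adjusted p = 0.0352).

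DFR, at the branch towards anthocyanins and flavanols, had copies with opposite differences. VIT_215s0048g01000 had 1.52, 0.81 and 3.08 FPKM in ‘Muscat Hamburg’ and 43.44, 37.73 and 29.36 FPKM in ‘Victoria’ grapes. ‘Victoria’ was 20.4-fold higher in the mean, with a log2 fold change of -4.29 ± 0.32 (SE, edgeR adjusted p = 2.37e-11). The neighbouring VIT_215s0048g01010 was also lower in ‘Muscat Hamburg’, at 1.76, 2.03 and 2.56 FPKM against 6.89, 7.95 and 6.79 FPKM (-1.75 ± 0.21, edgeR adjusted p = 1.31e-07). In contrast, VIT_216s0039g02350 was higher, at 7.01, 7.34 and 5.24 FPKM against 0.63, 0.54 and 1.08 FPKM (3.06 ± 0.46, edgeR adjusted p = 5.27e-06). The fourth gene, VIT_218s0001g12800, was the main copy of ‘Muscat Hamburg’ and overlapped, with 28.9 ± 2.48 and 27.9 ± 12.7 FPKM (SD, n = 3). The DFR sum was 1.85-fold higher in ‘Victoria’, with 91.39, 74.46 and 52.18 FPKM there and 39.48, 41.42 and 37.19 FPKM in ‘Muscat Hamburg’ grapes. Which of these genes encodes the DFR that acts in the anthocyanin pathway was not analysed here.

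The main copy of LDOX was not the same in both varieties. VIT_202s0025g04720, the main copy of ‘Muscat Hamburg’, had 76.74, 113.37 and 97.1 FPKM in ‘Muscat Hamburg’ and 22.39, 20.64 and 24.97 FPKM in ‘Victoria’ grapes, without overlap (2.04 ± 0.26 on the log2 scale, edgeR adjusted p = 4.38e-07). VIT_208s0105g00380, the more abundant copy of ‘Victoria’, lay the other way at 21.9 ± 1.36 and 39.7 ± 12.2 FPKM (SD, n = 3), below the fold threshold (-0.85 ± 0.28), and passed without ‘Victoria’ replicate 1 (-1.06, edgeR adjusted p = 0.00552).

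Of the genes for flavan-3-ols, the units of proanthocyanidins, only VviLAR2 passed. VviLAR2 (VIT_217s0000g04150), a leucoanthocyanidin reductase, had 3.08, 3.96 and 3.77 FPKM in ‘Muscat Hamburg’ and 10.21, 14.68 and 17.36 FPKM in ‘Victoria’ grapes. All ‘Victoria’ libraries were higher (-1.78 ± 0.34 on the log2 scale, edgeR adjusted p = 0.000134). VviLAR1 (VIT_201s0011g02960) overlapped at 3.23 ± 0.138 and 2.87 ± 0.856 FPKM, and VviANR (VIT_200s0361g00040), the anthocyanidin reductase, was at most 1.05 FPKM in any library, at 0.527 ± 0.0493 and 0.807 ± 0.245 FPKM (SD, n = 3).

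Of the 18 regulators 4 passed, 2 higher and 2 lower, against 18.3% of all genes. VviMYBF1 (VIT_207s0005g01210), the activator of flavonol synthesis, had 0.17, 0.35 and 0.05 FPKM in ‘Muscat Hamburg’ and 2.32, 2.32 and 1.2 FPKM in ‘Victoria’ grapes. It was lower in every ‘Muscat Hamburg’ library (-3.37 ± 0.57 on the log2 scale, edgeR adjusted p = 2.22e-05). This direction was opposite to that of VviFLS5 and the same as that of VviFLS4, which did not pass the threshold. VviMYBPA1 (VIT_215s0046g00170), an activator of proanthocyanidin synthesis, was higher, at 3.02, 4.7 and 4.48 FPKM against 1.58, 1.05 and 1.82 FPKM (1.44 ± 0.52, edgeR adjusted p = 0.0274), a call that was lost without ‘Muscat Hamburg’ replicate 2 (1.29) or 3 (1.39) or ‘Victoria’ replicate 1 (1.48) or 2 (1.26). VviMYB5a (VIT_208s0007g07230), a broader activator of the pathway, passed as lower (-1.08 ± 0.31) although its libraries overlapped, at 2.14, 2.05 and 2.17 FPKM against 6.52, 4.84 and 2.16 FPKM. Without ‘Victoria’ replicate 1 it was -0.69 and no longer passed.

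The common partners of the MYB factors were closer together. VviWDR (VIT_216s0098g00870) had 27.36, 29.45 and 27.63 FPKM in ‘Muscat Hamburg’ and 21.29, 17.28 and 17.2 FPKM in ‘Victoria’ grapes, a difference of 0.60 ± 0.14 on the log2 scale (edgeR adjusted p = 0.000729) that did not overlap but was below 2-fold. The bHLH factor gene VviMYCA1 (VIT_215s0046g02560) was at 4.55 ± 0.145 and 2.85 ± 0.214 FPKM (SD, n = 3), also without overlap and below 2-fold (0.68 ± 0.15), and VviMYC1 (VIT_207s0104g00090) lay the other way at 14.5 ± 1.76 and 18.7 ± 0.729 FPKM (-0.37 ± 0.15). The repressors VviMYB4a (VIT_203s0038g02310) and VviMYBC2-L1 (VIT_201s0011g04760) overlapped, with log2 fold changes of -0.44 ± 0.23 and -0.18 ± 0.25. Of the light signalling genes, VviHY5 (VIT_204s0008g05210) overlapped at 20.9 ± 2.84 and 22.8 ± 4.35 FPKM, as did the UV-B receptor gene VviUVR1 (VIT_207s0031g02560) at 7.46 ± 1.05 and 7.22 ± 2.52 FPKM (SD, n = 3). VviHYH (VIT_205s0020g01090) was at 2.15, 3.22 and 4.65 FPKM against 5.75, 5.38 and 5.5 FPKM and missed the threshold (-0.83, edgeR adjusted p = 0.0505), but passed at -1.17 without ‘Muscat Hamburg’ replicate 3.

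Next it was tested whether the variety difference of the summer berries was that of the winter berries at the same stage. At winter E-L 38, 1363 genes were higher in ‘Muscat Hamburg’ (6.91%) and 1290 lower (6.54%). Of the genes higher in summer, 655 (43.9%) were also higher in winter, which was 48.1% of the winter list, and of the genes lower in summer 714 (33.7%) were also lower in winter, 55.3% of that list. The direction was opposite for 21 and 44 called genes. The difference between the seasons passed the same threshold for 1628 genes (8.25%), of which 693 (3.51%) had a larger value in summer and 935 (4.74%) a smaller one. Summer and winter berries ripened in different weather, and season cannot be told apart from the conditions of a single summer and winter. The winter ‘Victoria’ library numbered 1 correlated with the others of its group at 0.9826 to 0.9827, against 0.994 between those, and without it 1429 genes passed.

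Among the flavonoid genes, the variety difference of 20 of 64 was not the same in both seasons, beside 8.25% of all genes. The value of ‘Muscat Hamburg’ minus ‘Victoria’ was larger in summer for 3 and smaller for 17. A smaller value can be a wider gap in favour of ‘Victoria’, as for VviLAR2 (-1.78 in summer, 0.12 in winter). The study picked the synthesis genes among them for a difference between seasons in the same libraries, and analysed their regulators beside them. The larger share is therefore no finding. At winter E-L 38, 24 of the 64 were higher in ‘Muscat Hamburg’ (background 6.91%) and 6 lower (background 6.54%). Their median log2 fold change was 0.82 against 0.09 in summer, beside 0.003 and -0.01 over all genes, and the same choice of genes limits this contrast. VviUFGT had a variety difference of 2.93 in winter and 2.83 in summer on the log2 scale, and the difference between seasons was not detectable (difference -0.10 ± 0.25, edgeR adjusted p = 0.836). CHS VIT_205s0136g00260 had 4.89 and 4.82 (difference -0.07 ± 0.63, edgeR adjusted p = 0.969).

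VviFLS5 was the clearest case of a difference seen at summer E-L 38 and not at winter E-L 38. It was not confined to summer, because at winter E-L 35 ‘Muscat Hamburg’ was also higher (log2 fold change 1.23, edgeR adjusted p = 5.5e-05). At winter E-L 36 the value was -0.65, below the fold threshold. At winter E-L 38 VviFLS5 had 98.44, 126.49 and 154.04 FPKM in ‘Muscat Hamburg’ and 114.84, 104.73 and 110.74 FPKM in ‘Victoria’ grapes, with overlapping libraries (VIT_218s0001g03430). Both varieties were higher there than in summer, and ‘Victoria’ was at 1.32 to 4.02 FPKM in summer. The difference between seasons was 3.67 ± 0.32 on the log2 scale (SE, edgeR adjusted p = 1.05e-08). VviMYBF1 (VIT_207s0005g01210), which was lower in ‘Muscat Hamburg’ at summer E-L 38, was at 0.36 FPKM or less in every winter E-L 38 library of both varieties. At winter E-L 36 it was also lower in ‘Muscat Hamburg’ (log2 fold change -1.99, edgeR adjusted p = 0.00726). At winter E-L 35 it did not pass (-0.34, edgeR adjusted p = 0.552). VviHY5 (VIT_204s0008g05210) showed no passing difference in summer, but had 3.39, 3.23 and 3.21 FPKM in ‘Muscat Hamburg’ and 19.32, 15.13 and 13.97 FPKM in ‘Victoria’ winter berries. Its difference between seasons was 1.73 ± 0.34 (SE, edgeR adjusted p = 0.000775), and it was the ‘Muscat Hamburg’ level that was low in winter.

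Of the 23 upstream genes, 9 differed between seasons, all with smaller values in summer (background 4.74%), and 14 did not pass. The 9 include 6 copies of the PAL cluster that share reads. The PAL copy VIT_216s0039g01100 had 13.62, 16.58 and 7.56 FPKM in ‘Muscat Hamburg’ and 7.79, 4.07 and 5.32 FPKM in ‘Victoria’ berries at winter E-L 38. These overlapped and did not differ at the threshold at that stage (log2 fold change 1.24, edgeR adjusted p = 0.0889), while the difference between seasons passed (difference -2.86 ± 0.78, edgeR adjusted p = 0.0113). The 4CL gene VIT_211s0052g01090 likewise had 18.32, 22.62 and 13.35 FPKM against 11.47, 4.68 and 6.01 FPKM in winter (difference -2.64 ± 0.59, edgeR adjusted p = 0.00237). The C4H gene VIT_206s0004g08150 kept its direction but was further apart in winter, at 62.65, 86.16 and 77.94 FPKM against 11.1, 5.21 and 4.79 FPKM (difference -2.11 ± 0.36, edgeR adjusted p = 0.000151). Downstream, DFR VIT_215s0048g01000 was at 15.75, 24.27 and 19.62 FPKM in ‘Muscat Hamburg’ winter berries, above all of its summer values, and at 30.2, 62.12 and 60.38 FPKM in ‘Victoria’. The gap between the varieties was narrower in winter (difference -3.0 ± 0.41, edgeR adjusted p = 8.62e-06). VviLAR2 (VIT_217s0000g04150) overlapped in winter, at 6.12, 5.43 and 5.82 FPKM against 10.16, 3.86 and 3.84 FPKM, and its difference between seasons was -1.90 ± 0.49 (SE, edgeR adjusted p = 0.00728). The lower level in ‘Muscat Hamburg’ of the PAL cluster and of 4CL VIT_211s0052g01090 was not confined to summer. At winter E-L 35 all 7 copies were lower (background 8.25%), with a median log2 fold change of -2.97 against -1.68 at summer E-L 38. The 4CL gene was lower there too (-1.54, edgeR adjusted p = 0.00415). At winter E-L 36, 2 of the 7 were higher (background 8.37%) and 0 lower, and the 4CL gene was higher (1.62, edgeR adjusted p = 0.00247).

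**Figure D5:**
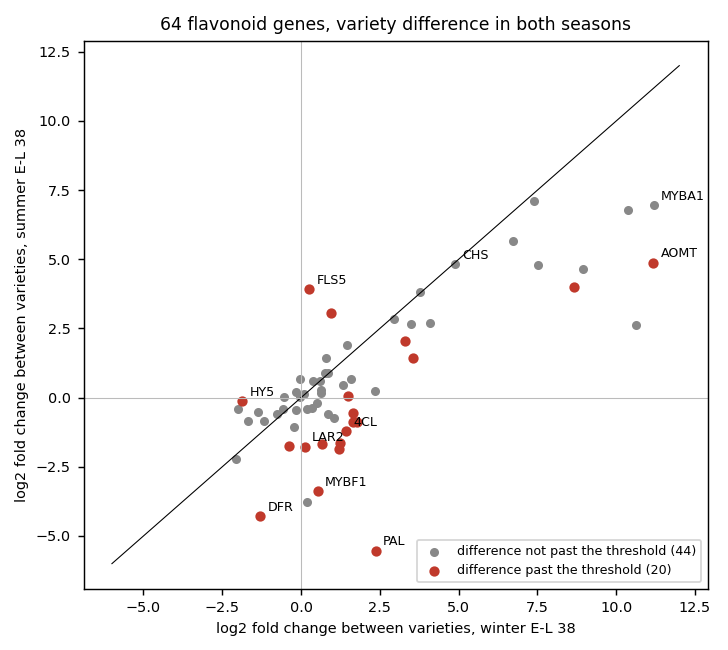
Variety difference of the 64 flavonoid genes on the log2 scale at winter E-L 38 (horizontal axis) and summer E-L 38 (vertical axis), positive where ‘Muscat Hamburg’ is higher. The line marks equal differences and the 20 red genes differ between seasons at the threshold; FLS5 and a DFR copy lie above the line with HY5, the other 17 lie below it.

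Against the previous stage of the same season the variety difference changed far less. The difference between summer E-L 38 and summer E-L 36 passed for 86 genes (0.436%), of which 31 (0.157%) had larger and 55 (0.279%) smaller values at E-L 38. The number moved from 34 to 412 when single libraries were left out. It was 412 without ‘Muscat Hamburg’ E-L 36 replicate 1, which was closer to an E-L 38 library than to its own group, and 319 without ‘Victoria’ E-L 36 replicate 1. A fit of only the 12 libraries concerned gave 0 genes with edgeR (1294 at an unadjusted p under 0.05), and 194 passed with DESeq2. Without the libraries numbered 1 of both stages in ‘Victoria’, where the stages were not clearly apart, 518 genes passed. The flavonoid genes among the 86 were VviFLS5, the PAL copy VIT_213s0019g04460 and VviUFGT, all with a larger difference at E-L 38. VviFLS5 had 27.97, 26.26 and 27.79 FPKM in ‘Muscat Hamburg’ and 5.91, 7.88 and 6.58 FPKM in ‘Victoria’ grapes at E-L 36, which left the varieties apart by 2.13 there and 3.93 at E-L 38 on the log2 scale (difference 1.80 ± 0.33, edgeR adjusted p = 0.00778). VviUFGT had 28.4, 29.94 and 29.24 FPKM against 12.99, 8.32 and 6.63 FPKM at E-L 36, and the ‘Muscat Hamburg’ libraries had reached 61.26 to 70.89 FPKM by harvest (difference 1.04 ± 0.24, edgeR adjusted p = 0.0391), a call that was lost without those libraries (0.50). The other variety comparisons had called shares, higher and lower, of 6.57% and 10.3% at summer E-L 36, 6.76% and 12.2% at summer E-L 35, 8.37% and 7.97% at winter E-L 36, and 6.42% and 8.25% at winter E-L 35. Over the 6 variety comparisons of the study, which cover both seasons and 3 stages, 283 of the genes higher here (19%) and 332 of the genes lower here (15.7%) passed in the same direction every time, while 310 (20.8%) and 318 (15%) passed at summer E-L 38 alone.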

How the data were processed

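RNA of de-seeded berries was sequenced as single reads and aligned by the authors to the grapevine genome 12X V2 (the submitters' processing notes name Bowtie). The deposited estimated counts per gene are not normalized, and the counting program is not given in the sources used here. FPKM values were computed by the authors and deposited beside them. A gene missing from a library's list was set to 0. A further table of 36 columns matched no label and was not used.

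Estimated counts were rounded and fitted with edgeR 4.0.16 (R 4.3.3) over 36 libraries in 12 groups, with TMM scaling and filterByExpr (19736 of 28119 genes). The SE of a log2 fold change is its size over the square root of the F statistic. Variety differences between seasons and stages were contrasts of the same model. With 3 libraries against 3, an exact permutation test cannot give a p under 0.1, so genes were tested in the model only. Counting intervals and floors (3 counts) cover counting error only. The fit was tested on simulated counts.

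Alternatives were DESeq2 1.42.0, limma 3.58.1 on log2(FPKM + 1) and log2(FPKM + 0.1), RLE factors, library size alone, no filter, at least 10 counts in every library, only the libraries compared, a replicate block, other thresholds, and each library left out. The fit without 2 ‘Victoria’ libraries was chosen after seeing the data. The named genes were the flavonoid genes that passed or that the study names, plus 2 higher and 2 lower identifiers without annotation, and further genes of the list described after their values were seen. Members and lists were chosen with earlier results of these data known. The reference table matched 0 of 28119 identifiers, so no sequence could be given, lists by annotation (stilbenes, terpenes, heat shock and others) were not analysed here, and the markers of seed tissue and ripening were not tested.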

Additional observations from a re-analysis of the deposited data

Results flagged for a closer look

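The variety difference of 20 flavonoid genes was not the same at summer and winter E-L 38 in a test of the difference itself, and that of 3 genes was not the same at summer E-L 38 and E-L 36. Values are log2 differences of ‘Muscat Hamburg’ minus ‘Victoria’ at summer E-L 38 less the same at the other point, each past an adjusted p of 0.05 with edgeR.

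Against winter, the PAL copies differed by -2.21 (VIT_208s0040g01710), -2.86 (VIT_216s0039g01100), -2.52 (VIT_216s0039g01110), -2.67 (VIT_216s0039g01120), -3.08 (VIT_216s0039g01130), -2.35 (VIT_216s0039g01170) and -7.90 (VIT_216s0039g01300). Over 22 alternative fits at the same threshold, the calls of VIT_216s0039g01170 and VIT_216s0039g01110 were lost under 13 and 11. Those of VIT_208s0040g01710, VIT_216s0039g01130 and VIT_216s0039g01120 were lost under 7, 6 and 3. Those of VIT_216s0039g01100 and VIT_216s0039g01300 were lost under none, the latter tested in 21 fits. VIT_216s0039g01300 had libraries at 0 in both seasons, and its value ran from -12.79 to -4.20. C4H VIT_206s0004g08150 (-2.11) and 4CL VIT_211s0052g01090 (-2.64) passed under every alternative.

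The DFR copies differed by -3.0 (VIT_215s0048g01000), -1.38 (VIT_215s0048g01010), 2.12 (VIT_216s0039g02350) and -1.42 (VIT_218s0001g12800), of which only the third was lost, under 8 of 21 alternatives. VviFLS5 differed by 3.67, VviLAR2 by -1.90, LDOX VIT_202s0025g04720 by -1.26, VviMYBF1 by -3.90 and VviHY5 by 1.73. VviAOMT (-6.30) and Vvi3AT (-4.68) had no read in the 3 winter libraries of ‘Victoria’, so their fitted values depend on the prior count and are no measure of size. With limma on FPKM and the other alternatives they ran from -6.83 to -1.30 and from -5.31 to -0.28, and the call of Vvi3AT was lost under 5 of 21. The calls of LDOX VIT_202s0025g04720 and VviMYBF1 were each lost under 1, and those of VviFLS5, VviLAR2 and VviHY5 under none.

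Against E-L 36, PAL VIT_213s0019g04460 differed by 1.82, VviFLS5 by 1.80 and VviUFGT by 1.04. The calls were lost under 9, 1 and 11 of 22 alternatives, in that order, and none of the 23 differences changed direction under any.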

How the results depend on the processing

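The 30 flavonoid genes called kept their direction in every alternative fit that tested them, and 21 kept the call in all of those. Of 34 not called, 29 stayed so. Fits whose filter removed a gene, and the other thresholds, do not enter this tally. The counts moved mainly with the threshold and the filter. With at least 10 counts in every library, 698 genes were higher and 1126 lower, 10 flavonoid genes were higher, and 1066 genes differed from winter (fewer genes tested). With limma on log2(FPKM + 1), which shrinks low genes, 907 were higher and 1236 lower. Without the fold condition, 4020 were higher, 4150 lower and 3316 differed from winter. At an adjusted p of 0.01, 6 flavonoid genes were lower, 901 genes differed from winter and 21 from E-L 36.

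With each library left out in turn, 1369 to 1466 genes were higher and 1939 to 2058 lower, 17 to 21 flavonoid genes were higher and 7 to 9 lower (7 without ‘Muscat Hamburg’ replicate 2 or 3), and 1309 to 1611 genes differed from winter. The difference from E-L 36 depended most on the processing, with 34 to 412 genes when single libraries were left out (412 without ‘Muscat Hamburg’ E-L 36 replicate 1), 0 with only its own libraries, 194 with DESeq2 and 518 without both ‘Victoria’ libraries numbered 1, and the cause was not tested.

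The replicate number as a block gave 1473 higher and 2095 lower genes. Same-numbered libraries of the varieties did not deviate together over all genes (correlations -0.0142, -0.0585 and -0.0302), and no pairing by number was seen. Whether same-numbered libraries shared a step of handling was not tested.

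Among the flavonoid genes, signs turned only for uncalled ones. Their log2 fold changes in the main fit ran from -0.42 (F3'H VIT_203s0063g01690) to 0.24 (C4H VIT_211s0078g00290). VviMYBA2, at 0.01, was -0.006 with DESeq2, the count minimum or no filter, -0.007 with RLE, -0.005 with library size alone, -0.004 with only its libraries and -0.011 with the block. Left-out libraries gave VviMYBA2 -0.224 to 0.378, VviMYB5b -0.032 to 0.13, VviUVR1 -0.159 to 0.357, DFR VIT_218s0001g12800 -0.24 to 0.433, VviLAR1 -0.079 to 0.314, C4H VIT_211s0078g00290 -0.848 to 1.001, C4H VIT_211s0065g00350 -0.007 to 0.293, F3'H VIT_203s0063g01690 -0.869 to 0.318, VviMYBC2-L1 -0.358 to 0.008 and VviHY5 -0.251 to 0.04. Without both ‘Victoria’ libraries numbered 1, F3'H VIT_203s0063g01690 was 0.313, VviLAR1 -0.08 and VviMYB5b -0.001. Depth limits genes under a few FPKM, such as single F3'5'H copies.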

Other observations

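Genes can be grouped by the block number in their identifier, which marks neighbours on the assembly. Over 135 blocks with at least 20 tested genes, the median share called was 18.1% (5.0% to 53.3%). Of the block VIT_216s0100, chosen after its values were seen and carrying no annotation in the sources used, 28 of 81 genes were lower in ‘Muscat Hamburg’ grapes at summer E-L 38 (background 10.7%) and 3 higher (background 7.56%), with a median log2 fold change of -0.61. At winter E-L 38, 8 were higher (background 6.91%) and 5 lower (background 6.54%), with a median of 0.21. The difference between seasons passed for 20 genes, all with smaller values in summer (background 4.74%). Counts of 41 of the 81 were not whole, so reads may be divided among similar copies. The summed level of the block was 1401 to 1442 FPKM in ‘Muscat Hamburg’ and 1634 to 1785 FPKM in ‘Victoria’ summer berries, and the libraries did not overlap. In the block VIT_202s0033, which holds the MYBA genes, 11 of 68 genes were higher (background 7.56%) and 5 lower (background 10.7%). Its share called was 23.5%, and counts of 36 of the 68 were not whole.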
